A study of Mus musculus with 24 samples.

Results

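Integrins and laminins hold a cell to the matrix around it, and their transcripts were followed here across 8 groups of cultured mouse muscle cells. The set holds every protein-coding gene of the count table named as an integrin alpha chain, an integrin beta chain or a laminin chain, which is 37 of 56748 genes. It comprises 18 alpha chains, 8 beta chains and 11 laminin chains. A filter on low counts kept 33 members in myotubes and 33 in fibroblasts for testing. The filter kept 36 in the fit of both cell types, all but Itgad.

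An integrin is a pair of 1 alpha and 1 beta chain that spans the membrane, binds matrix proteins or other cells outside, and joins the actin cytoskeleton inside. A laminin is a cross-shaped trimer of alpha, beta and gamma chains and is the protein that first organises a basement membrane. Skeletal muscle fibres grip laminin through 2 systems, the dystrophin complex with dystroglycan and the integrin of chains alpha7 and beta1. Loss of dystrophin, of alpha7 or of the laminin chain alpha2 each causes muscular dystrophy.

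The cells were primary cultures from the hindlimb muscle of pups less than 5 days old, of C57BL/10 mice (C57) and of mdx mice (C57BL/10-Dmdmdx), which have a mutated dystrophin gene, Dmd, on that background. Myotubes, fused muscle cells grown from myoblasts, received 1 µM aldosterone, a steroid hormone, or vehicle (DMSO at 0.001%) for 48 h, in medium with charcoal-stripped horse serum. They then stood in fresh medium for 15 h, which was collected as conditioned medium, and were lysed. Fibroblasts received that medium for 24 h, always from myotubes of their own genotype, so what the fibroblast's genotype does and what its medium's genotype does cannot be told apart. Each of the 8 groups (cell type, genotype and treatment) had 3 libraries labelled as biological replicates. The labels do not say that these were separate animals or preparations, so p-values measure the spread between these libraries.

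Myotube libraries held 14133165 to 31144746 counts, and fibroblast libraries 16964960 to 42698139. Dmd checked the genotype labels, at 352 to 484 CPM (counts relative to library size, scaled by TMM) in C57 myotubes and at 35.3 to 70.0 CPM in mdx myotubes. All 8 myotube markers exceeded 1 CPM in every myotube group and all 7 fibroblast markers in every fibroblast group. Myotube libraries differed within groups in markers of other cells. The summed level of 17 leukocyte markers ranged from 7.76 to 584 CPM and was lowest in culture 1 of each group. The sum of 7 fibroblast markers ranged from 285 to 3196 CPM and was highest in mdx culture 2 with either treatment. In fibroblasts the 3 deepest libraries were C57 vehicle replicate 1, mdx vehicle replicate 2 and mdx aldosterone replicate 2. Those 3 also stand first in the deposited table. In several members they differed from the rest of their groups, so fibroblast results are given with and without them.

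The 2 cell types were first compared for which receptors and laminins they make. Levels between genes are compared here per length, as mean CPM per kilobase ± SD over the 12 libraries of a cell type. The length is the deposited gene length, which need not be that of the transcript present, so ranks and shares between genes depend on it. Itga7, the alpha chain of the muscle laminin receptor, was the highest alpha chain in myotubes. In fibroblasts the highest alpha chain was Itga5, which binds fibronectin. In both cell types Itgb1, the partner of most alpha chains, was the highest member, at 407 ± 52.1 CPM per kilobase in myotubes and 338 ± 21.9 in fibroblasts. Itgb5, whose chain pairs with alphav and binds vitronectin, was second among beta chains at 107 ± 17.0 and 139 ± 10.3. By library, Itgb1 in fibroblasts had 1497, 1406 and 1458 CPM (C57 vehicle medium), 1437, 1351 and 1516 CPM (C57 aldosterone medium), 1359, 1251 and 1404 CPM (mdx vehicle medium) and 1350, 1234 and 1308 CPM (mdx aldosterone medium). Itgb5 in myotubes had 333, 384 and 365 CPM (C57 vehicle), 347, 337 and 343 CPM (C57 aldosterone), 337, 501 and 403 CPM (mdx vehicle) and 310.1, 482 and 417 CPM (mdx aldosterone). The mdx cultures were spread more widely in Itgb5 than the C57 cultures under both treatments.

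**Figure D1:**
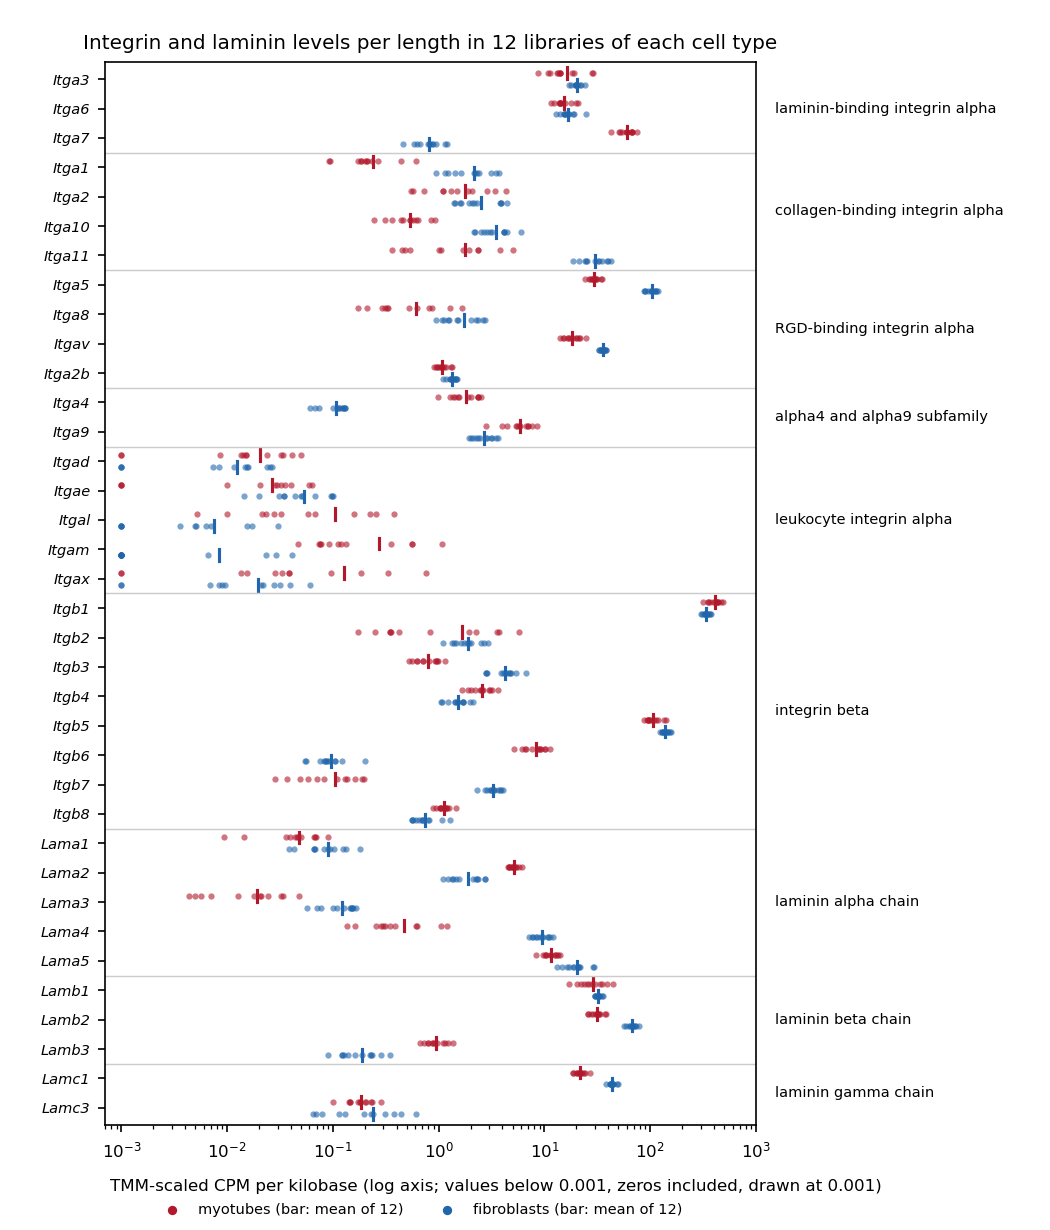
Level of 36 of the 37 members, as TMM-scaled CPM per kilobase on a log axis, in 12 myotube libraries (red) and 12 fibroblast libraries (blue), with a bar at the mean. Itga7 and Itgb6 lie far to the right in myotubes, Itga11, Itgb7 and Lama4 in fibroblasts, and Itgb1 is the highest gene of both.

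Itga7 (ENSMUSG00000025348, mm39 chr10:128769645-128794155) was the gene that set the laminin receptors of the 2 cell types apart. In C57 vehicle myotubes it lay at 612, 546 and 546 CPM, and in C57 vehicle fibroblasts at 9.27, 7.61 and 5.44 CPM. The other fibroblast groups held 4.72, 5.13 and 6.73 CPM (C57 aldosterone medium), 3.70, 6.64 and 6.39 CPM (mdx vehicle medium) and 7.18, 9.67 and 6.98 CPM (mdx aldosterone medium). No myotube library came near a fibroblast library in this gene, and the log2 difference was 6.25 (SE 0.24, adjusted p = 1.67e-14). The other laminin-binding alpha chains, Itga3 and Itga6 (known also from epithelia), had log2 differences of -0.72 and -0.43 that did not pass. Itga3 in fibroblasts had 138, 127 and 115 CPM (C57 vehicle medium), 117, 110.5 and 97.7 CPM (C57 aldosterone medium), 113, 102 and 124 CPM (mdx vehicle medium) and 112, 113 and 112 CPM (mdx aldosterone medium). Per length, Itga7 made up 71.6% ± 1.86 (SD, n = 3) of the 3 laminin-binding alpha transcripts in C57 vehicle myotubes, and 2.15% ± 0.333 in the fibroblasts, where Itga3 and Itga6 made up 53.1% ± 4.42 and 44.7% ± 4.47.

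In C57 with vehicle, 29 of 36 members passed the test between cell types, 12 higher in myotubes and 17 higher in fibroblasts. Of all genes 74.7% passed, 36.7% higher in myotubes and 38% higher in fibroblasts. That share is near the background, and what follows describes which members stood on which side. In mdx with vehicle 26 of 36 passed, 11 and 15, beside 70.5% of all genes, 35.5% and 35.1%. The libraries of the cell types did not overlap for 30 members in C57 (all genes, 78.9%) and 26 in mdx (all genes, 71.9%). The median log2 difference of the 36 members was -0.52 in C57 and -0.26 in mdx, beside -0.0279 and -0.0174 over all genes. Every adjusted p-value below is edgeR's (quasi-likelihood), adjusted by Benjamini-Hochberg over all genes kept.

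The collagen receptors stood on the fibroblast side. All 4 collagen-binding alpha chains were higher in C57 fibroblasts, and 3 of 4 in mdx, where Itga2 did not pass (log2 difference -0.52, adjusted p = 0.156). Itga11 (ENSMUSG00000032243, mm39 chr9:62585108-62691264), whose chain is a fibrillar collagen receptor of fibroblasts, lay at 2.28, 12.2 and 5.37 CPM in C57 vehicle myotubes and at 95.5, 178 and 164 CPM in C57 vehicle fibroblasts. The myotube libraries were spread widely but all stood far below the fibroblasts (log2 difference -4.40, SE 0.72, adjusted p = 2.79e-05). Itga1, which prefers basement membrane collagen, and Itga10, known from cartilage, had log2 differences of -3.16 and -3.95.

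Receptors of fibronectin and vitronectin, which read the RGD sequence, were also higher in fibroblasts for 3 of 4 alpha chains in both genotypes. Itga5 (ENSMUSG00000000555, mm39 chr15:103252713-103275190) lay at 120.0, 153 and 139 CPM in C57 vehicle myotubes and at 537, 549.6 and 562 CPM in C57 vehicle fibroblasts. The other myotube groups had 139.7, 129 and 149 CPM (C57 aldosterone), 172, 167 and 132 CPM (mdx vehicle) and 149, 150.2 and 141 CPM (mdx aldosterone). The other fibroblast groups had 509, 439 and 504 CPM (C57 aldosterone medium), 439, 502 and 558 CPM (mdx vehicle medium) and 469.6, 583 and 434 CPM (mdx aldosterone medium). No myotube library reached a fibroblast library in Itga5. Itgav (ENSMUSG00000027087, mm39 chr2:83554741-83637260), the most promiscuous alpha chain, had 149.5, 179 and 178 CPM in the C57 vehicle myotubes and 413, 411 and 405 CPM in the fibroblasts (log2 difference -1.28, SE 0.10, adjusted p = 1.68e-10). Its other myotube groups had 164, 161 and 201 CPM (C57 aldosterone), 232, 225 and 188 CPM (mdx vehicle) and 220.0, 263 and 212 CPM (mdx aldosterone). Its other fibroblast groups had 389, 379 and 397 CPM (C57 aldosterone medium), 369, 368 and 393 CPM (mdx vehicle medium) and 352, 352 and 367 CPM (mdx aldosterone medium). In each medium the mdx fibroblasts lay below the C57 fibroblasts in Itgav without passing (log2 differences -0.11 and -0.13, adjusted p = 0.388 and 0.26). The remaining alpha chain of the 3 was Itga8 in C57 (log2 difference -1.86) and Itga2b, known from platelets, in mdx (-0.42).

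On the myotube side stood Itga4 and Itga9, the subfamily that binds VCAM1, fibronectin, tenascin and osteopontin, both higher in myotubes of either genotype. Itga4 (ENSMUSG00000027009, mm39 chr2:79085770-79163467) held 28.4, 32.5 and 35.2 CPM in C57 vehicle myotubes against 1.60, 1.52 and 1.80 CPM in the fibroblasts. The other fibroblast groups held 0.842, 1.79 and 1.81 CPM (C57 aldosterone medium), 1.59, 1.40 and 0.950 CPM (mdx vehicle medium) and 1.74, 1.72 and 1.04 CPM (mdx aldosterone medium) of Itga4. Itga9 in fibroblasts had 18.9, 23.9 and 22.2 CPM (C57 vehicle medium), 24.3, 27.8 and 26.9 CPM (C57 aldosterone medium), 17.2, 15.7 and 16.1 CPM (mdx vehicle medium) and 21.6, 14.9 and 18.3 CPM (mdx aldosterone medium). In both media the mdx fibroblasts stood below the C57 fibroblasts in Itga9, and the gene did not pass (log2 differences -0.40 and -0.54, adjusted p = 0.174 and 0.054).

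Among beta chains Itgb6 (ENSMUSG00000026971, mm39 chr2:60428636-60552987), the alphav partner that activates latent TGF-beta and is best known from epithelia, was far higher in myotubes. It held 79.6, 71.8 and 72.6 CPM in C57 vehicle myotubes and 1.44, 0.395 and 0.868 CPM in C57 vehicle fibroblasts (log2 difference 6.30, SE 0.25, adjusted p = 2.24e-14). In the other fibroblast groups Itgb6 had 0.741, 0.387 and 0.660 CPM (C57 aldosterone medium), 0.741, 0.627 and 0.532 CPM (mdx vehicle medium) and 0.581, 0.618 and 0.598 CPM (mdx aldosterone medium). The summed level of 5 epithelial markers was also higher in myotubes, at 0.450 to 2.11 CPM, than in fibroblasts, at 0.0380 to 0.448 CPM. The part of these markers in the Itgb6 difference was not tested. Itgb7, a lymphocyte beta chain, ran from 0.0777 to 0.542 CPM in myotubes and from 6.35 to 11.2 CPM in fibroblasts. Itgb3 was higher in fibroblasts too, and Itgb1 did not pass in C57 (log2 difference -0.07, SE 0.08, adjusted p = 0.434). In mdx Itgb1 passed and was higher in myotubes (log2 difference 0.29, SE 0.08, adjusted p = 0.00283).

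Laminin chains divided by type. Lama2 (ENSMUSG00000019899, mm39 chr10:26856032-27495754), the alpha chain of the muscle basement membrane, was higher in myotubes, at 85.3, 79.3 and 88.8 CPM in C57 vehicle myotubes against 35.4, 45.3 and 37.1 CPM in the fibroblasts. The other myotube groups had 102, 77.3 and 94.7 CPM (C57 aldosterone), 77.3, 75.0 and 82.6 CPM (mdx vehicle) and 84.5, 82.7 and 89.1 CPM (mdx aldosterone) of it. Lama4, an alpha chain of vessel and fat basement membranes, and Lama5, found in many tissues, were higher in fibroblasts (log2 differences -4.38 and -0.54). Per length, though, Lama5 and not Lama2 was the leading alpha chain transcript in both. The shares that follow use the deposited lengths, 16605 bases for Lama2 and 11388 for Lama5, and would change with other lengths. In C57 vehicle myotubes Lama5 made up 67.1% ± 2.48 (SD, n = 3) of the 5 alpha chains, Lama2 30.0% ± 1.28 and Lama4 2.41% ± 1.37. In C57 vehicle fibroblasts the shares were 59.5% ± 5.31 for Lama5, 31.2% ± 3.91 for Lama4 and 8.56% ± 1.29 for Lama2.

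Among the partner chains, Lamb2 and Lamc1 were higher in fibroblasts of both genotypes. Lamb2 (ENSMUSG00000052911, mm39 chr9:108356935-108367729) lay at 204, 185 and 187 CPM in C57 vehicle myotubes and at 346, 409 and 424 CPM in the fibroblasts. Lamc1 (ENSMUSG00000026478, mm39 chr1:153094668-153208532), the gamma chain of most laminins, lay at 165, 179 and 173 and 318, 354 and 346 CPM in the same groups. Both sets of 3 libraries lay apart in each gene, with log2 differences of -1.03 and -0.98 (adjusted p = 2.35e-07 and 7.27e-09). In mdx the log2 differences were -0.96 and -0.89 (adjusted p = 7.93e-07 and 3.7e-08). Lamb1, the other common beta chain, was lower in C57 myotubes (log2 difference -0.49, adjusted p = 0.00406) and did not pass in mdx (0.11, SE 0.14, adjusted p = 0.485).

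The remaining groups gave Lamb2 194, 158 and 173 CPM (C57 aldosterone), 167, 230.2 and 197 CPM (mdx vehicle) and 156, 228 and 195 CPM (mdx aldosterone) in myotubes. In fibroblasts they gave Lamb2 413, 445 and 439.7 CPM (C57 aldosterone medium), 411, 387 and 359.9 CPM (mdx vehicle medium) and 473, 389 and 414 CPM (mdx aldosterone medium). For Lamc1 the remaining myotube groups had 175, 153 and 168 CPM (C57 aldosterone), 188, 223 and 184 CPM (mdx vehicle) and 154, 201 and 198 CPM (mdx aldosterone). In each of these genes every fibroblast library was above every myotube library. Remaining fibroblast groups had Lamc1 at 351, 364 and 345 CPM (C57 aldosterone medium), 355, 399 and 351 CPM (mdx vehicle medium) and 370.4, 407 and 368 CPM (mdx aldosterone medium). Lamb1 in fibroblasts had 301, 317 and 299 CPM (C57 vehicle medium), 325, 309.7 and 318 CPM (C57 aldosterone medium), 299.8, 355 and 333 CPM (mdx vehicle medium) and 329, 351 and 319.6 CPM (mdx aldosterone medium). Its fibroblast groups overlapped between genotypes in both media. Lamb3, a chain of the epithelial laminin, was low in both cell types and higher in myotubes, with a log2 difference of 1.73. Lamb3 spans Hsd11b1 and G0s2 on the other strand, and the libraries were not directional, so some reads may belong to either. Whether their exons overlap was not checked. Lama3, the alpha chain of the same laminin, never passed 0.508 CPM in myotubes.

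For the mdx against C57 change, edgeR called a difference between the cell types in 0 of 36 members, where 0.23% of all genes passed. Among them 11 had an unadjusted p under 0.05, beside 11.8% of all genes. DESeq2 called 3 (Itga10, Lama2 and Lamc3), beside 1.54% of all genes. Without myotube mdx vehicle replicate 3, edgeR also called 3 (Itgav, Lamb1 and Lamc3), beside 1.53% of all genes.

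The change of attachment genes with aldosterone was read in the myotubes that received it, against vehicle. They were lysed after 15 h in fresh medium that followed the 48 h of treatment, so direct and later responses cannot be told apart. The largest rises were in collagen receptor genes, Itga2 and Itga10, and Itgb1, their shared partner, rose with them. Itga3, a laminin-binding alpha chain, rose as well, and the other collagen-binding alpha chains, Itga1 and Itga11, were not called. The muscle laminin receptor gene Itga7 fell, as did Itga9, Itgb3, Itgb6 and the laminin gene Lama5. Vehicle and aldosterone libraries with the same number deviated together, so the paired values are given beside the unpaired ones, and a pair is called a culture below. As the mean of both genotypes, 9 of 33 members passed with pairing, 4 higher and 5 lower. Over all genes 8.96% passed, 4.4% higher and 4.56% lower. Without pairing, edgeR called 0 members, where 0.216% of all genes passed, with 6 at an unadjusted p under 0.05, beside 7.4% of all genes. DESeq2 called Itgb1 alone, beside 1.07% of all genes. The median log2 change of the 33 members was -0.06 with pairing, beside 0.01 over all genes. With 1 culture left out of the paired fit, Itga3 lost its call without C57 culture 3 (log2 0.28, adjusted p = 0.0871) or mdx culture 3 (0.26, adjusted p = 0.0662). Itgb3 likewise lost it without C57 culture 3 (-0.43, adjusted p = 0.0627) or mdx culture 3 (-0.40, adjusted p = 0.0864), and the other 7 kept their calls in all 6 such fits.

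**Figure D2:**
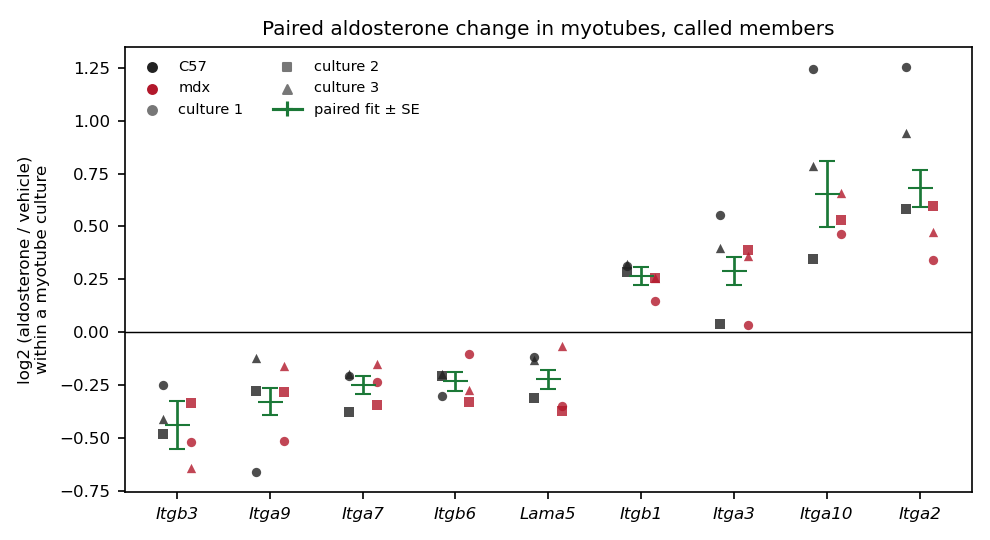
Log2 ratio of aldosterone to vehicle within each of 6 myotube cultures (C57 black, mdx red, marker shape by culture number) for the 9 members called with pairing, with the paired estimate ± SE in green. All 6 ratios of each gene lie on 1 side of 0, and Itga2 and Itga10 show the largest spread.

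Itga2 (ENSMUSG00000015533, mm39 chr13:114969617-115068636) encodes the alpha chain of a collagen receptor known from platelets and epithelia. C57 myotubes had 3.92, 5.19 and 4.07 CPM of it with vehicle and 9.34, 7.77 and 7.82 CPM with aldosterone, so the treated libraries all stood above the untreated ones. In mdx myotubes the vehicle values were 24.1, 13.5 and 10.6 CPM and the aldosterone values 30.6, 20.5 and 14.7 CPM, where the groups overlapped but each culture rose. The paired mean log2 change was 0.68 (SE 0.09, adjusted p = 9.82e-06), higher in 6 of 6 cultures. Its estimate was 0.91 in C57 and 0.46 in mdx, and the difference between them did not pass (adjusted p = 0.884).

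Itga10 (ENSMUSG00000090210, mm39 chr3:96552900-96571835), low in myotubes, held 1.26, 1.86 and 1.60 CPM in C57 with vehicle and 2.99, 2.37 and 2.76 CPM with aldosterone. In mdx its values were 2.27, 3.29 and 2.75 CPM and 3.13, 4.75 and 4.34 CPM, again with a rise in every culture (paired mean log2 change 0.65, SE 0.15, adjusted p = 0.0075). Itgb1 (ENSMUSG00000025809, mm39 chr8:129412135-129459681) went from 1285, 1442 and 1427 CPM to 1598, 1756 and 1786 CPM in C57, with no overlap. In mdx it went from 1734, 1668 and 1511 CPM to 1920, 1990 and 1804 CPM, again with no overlap. The paired mean log2 change was 0.26 (SE 0.04, adjusted p = 0.000125) in this gene, the member with the highest level. Itga3 (ENSMUSG00000001507, mm39 chr11:94935300-94967627), the fourth called increase, moved from 74.9, 77.1 and 79.6 CPM to 109.8, 79.2 and 105 CPM in C57. In mdx it moved from 161, 49.7 and 62.3 CPM to 165, 65.0 and 80.0 CPM, where culture 1 stood far above cultures 2 and 3 under both treatments (paired mean log2 change 0.29, SE 0.07, adjusted p = 0.0158).

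The stretches before the starts of Itga2, Itga10 and Itgb1 are shown because these genes rose together with a steroid hormone. Each is the 250 bases before the start in RefSeq's table for build GRCm38.p6, 5′ to 3′ on the gene's strand. Capitals mark the hexamer TGTTCT, read on either strand, which is a half-site of the elements that steroid hormone receptors bind. Itga2 is chr13:114932101-114932350 on the minus strand, Itga10 is chr3:96645334-96645583 on the plus strand and Itgb1 is chr8:128685404-128685653 on the plus strand.
Itga2: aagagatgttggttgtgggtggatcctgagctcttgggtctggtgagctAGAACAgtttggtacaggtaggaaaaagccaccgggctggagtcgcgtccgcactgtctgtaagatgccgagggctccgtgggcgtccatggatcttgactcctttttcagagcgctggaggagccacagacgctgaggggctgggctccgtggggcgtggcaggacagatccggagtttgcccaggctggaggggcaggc
Itga10: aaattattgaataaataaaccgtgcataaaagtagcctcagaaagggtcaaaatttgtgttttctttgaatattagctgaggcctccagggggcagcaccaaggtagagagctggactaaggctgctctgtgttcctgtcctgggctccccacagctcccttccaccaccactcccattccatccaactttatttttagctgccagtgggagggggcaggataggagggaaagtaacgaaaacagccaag
Itgb1: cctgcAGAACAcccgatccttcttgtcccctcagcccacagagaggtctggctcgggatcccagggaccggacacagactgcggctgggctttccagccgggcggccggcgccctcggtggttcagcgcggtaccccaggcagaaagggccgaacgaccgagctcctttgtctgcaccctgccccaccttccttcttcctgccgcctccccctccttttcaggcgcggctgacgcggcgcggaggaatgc
The hexamer stands at positions -201 to -196 from the start of Itga2 and at -245 to -240 from that of Itgb1, on the opposite strand in both, and nowhere in the Itga10 window of 300 bases, which includes 50 bases after the start. Over windows of that length it occurs in 19.0% of 32851 promoters and in 6 of 26 windows of the 23 members found in the table. The full element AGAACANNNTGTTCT occurs in 3 promoters of the table and in 0 of the member windows. Such matches describe the letters and are not evidence of binding.

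Among the members that fell, Itga7 had the highest level. In C57 myotubes its values were 612, 546 and 546 CPM with vehicle and 530.4, 420.0 and 476 CPM with aldosterone, without overlap. In mdx myotubes they were 489, 444 and 545 CPM and 415, 349.6 and 492 CPM, where culture 3 with aldosterone stood above 2 of the untreated libraries, though each culture fell. The paired mean log2 change was -0.25 (SE 0.04, adjusted p = 0.000192). Itga7 fell in each genotype alone, with estimates of -0.26 in C57 (adjusted p = 0.00801) and -0.25 in mdx (adjusted p = 0.0199), and the mdx call was lost without any 1 of the mdx cultures (adjusted p = 0.103, 0.353 and 0.0836). Itga7 and Itgb1, which pair as the muscle laminin receptor, thus moved in opposite directions. The sum of 8 myotube markers was 40094, 33571 and 35129 CPM with vehicle and 36211, 34236 and 32302 CPM with aldosterone in C57. In mdx the sum was 23899, 28315 and 36490 CPM and 21831, 22910 and 34754 CPM, and it was lower with aldosterone in 5 of 6 cultures. Its part in the falls of Itga7 and Itgb6, both higher in myotubes than in fibroblasts, was not tested.

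Itga9 (ENSMUSG00000039115, mm39 chr9:118435758-118730071), a receptor chain for tenascin and osteopontin, went from 53.6, 51.1 and 45.4 CPM to 33.9, 42.1 and 41.8 CPM in C57. In mdx it went from 30.8, 53.5 and 65.4 CPM to 21.5, 43.9 and 58.6 CPM, where cultures differed more than treatments did (paired mean log2 change -0.33, SE 0.06, adjusted p = 0.00231). Itgb6 had 79.6, 71.8 and 72.6 CPM with vehicle and 64.6, 62.1 and 63.4 CPM with aldosterone in C57, where the groups did not overlap. Its mdx values were 47.3, 46.5 and 65.5 CPM and 44.0, 37 and 54.3 CPM, which did (paired mean log2 change -0.23, SE 0.05, adjusted p = 0.00143).

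Itgb3 (ENSMUSG00000020689, mm39 chr11:104498826-104561302), the beta chain of the classical vitronectin receptor, was low, at 3.68, 5.80 and 5.59 CPM and 3.09, 4.16 and 4.20 CPM in C57, with overlap. Its mdx values were 4.78, 6.80 and 5.73 CPM with vehicle and 3.33, 5.40 and 3.67 CPM with aldosterone (paired mean log2 change -0.44, SE 0.11, adjusted p = 0.0157). Lama5 (ENSMUSG00000015647, mm39 chr2:179818166-179867652) was the laminin chain that passed, 1 of 10 laminins tested. It lay at 143, 117 and 129.7 CPM and 131, 94.1 and 118 CPM in C57 and at 142, 149 and 161 CPM and 111, 115 and 154 CPM in mdx (paired mean log2 change -0.22, SE 0.04, adjusted p = 0.00176). Its groups overlapped in both genotypes, and every culture fell. Lama2 did not pass, with a paired log2 change of 0.12 (adjusted p = 0.103).

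By genotype, 7 of 33 members passed in C57 with pairing, beside 4.98% of all genes, 2.52% higher and 2.46% lower. Those were Itga2, Itga10 and Itgb1 higher and Itga7, Itga9, Itgb6 and Itgax lower. In mdx 3 passed (Itga2 higher, Itga7 and Lama5 lower), beside 2.33% of all genes, 1.01% higher and 1.32% lower. Without pairing edgeR called 0 in each, where 0.0127% and 0% of all genes passed, with 3 and 2 members at an unadjusted p under 0.05, beside 4.97% and 3.44% of all genes. DESeq2 called 0 in each. Of the paired calls, Itga2, Itga7 and Itgb1 in C57 were kept in each fit without 1 C57 culture. Itga10 and Itgb6 were lost without culture 1 or 3, Itga9 without culture 1 or 2, and Itgax without culture 3. Itgax kept its call without culture 1 and had no result without culture 2. In mdx the calls of Itga2 and Itga7 were lost without any 1 culture and that of Lama5 without culture 1 or 2. Itgax (ENSMUSG00000030789, mm39 chr7:127728719-127749829), a chain of macrophages and dendritic cells, had 0.187, 3.66 and 1.60 CPM with vehicle and 0.160, 0.894 and 0.136 CPM with aldosterone in C57. In mdx myotubes it had 0, 0.0748 and 0.458 CPM and 0, 0.0642 and 0.184 CPM, and C57 vehicle cultures 2 and 3 stood above every mdx library. Fibroblasts had 0.189, 0.132 and 0.0334 CPM (C57 vehicle medium), 0.101, 0.290 and 0.104 CPM (C57 aldosterone medium), 0, 0.0432 and 0.152 CPM (mdx vehicle medium) and 0, 0.0457 and 0.0399 CPM (mdx aldosterone medium). The leukocyte marker sum in C57 myotubes was 17.6, 584 and 345 CPM and 16.3, 464 and 267 CPM, and its part in the Itgax result was not tested. In these bulk samples fewer cells of a type and less RNA per cell cannot be told apart.

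The libraries did not overlap between treatments for 8 of 33 members in C57, where that held for 14.4% of all genes. In mdx they did not overlap for 2 of 33, beside 6.53%. The aldosterone change did not differ between genotypes for any member by edgeR's test, with pairing (4 at an unadjusted p under 0.05, beside 5.3% of all genes) or without it (0, beside 0.964%), and DESeq2 called 0. Over all genes 0.0444% passed with pairing. Leaving out mdx culture 2 left 0 members called in mdx, and leaving out culture 1 or 3 left 1, so the count of 3 was reached with all cultures in the fit. With both libraries of mdx culture 1 left out, edgeR called the genotype difference of 1 member, Itgb2 (log2 1.69, adjusted p = 0.042). In mdx culture 2, kept in that fit, the leukocyte marker sum was 50.9 CPM with vehicle and 249 CPM with aldosterone. Its part in the Itgb2 call was not tested. No share of all genes is given for these left-out fits, so their counts are not read as a result about the members.

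Myotubes of mdx mice were compared with C57 myotubes to ask how attachment genes differ where dystrophin is missing. With vehicle, Itga2 was the 1 of 33 members that passed and 12 had an unadjusted p under 0.05 (14.4% of all genes), where 0.362% of all genes passed, 0.14% higher. Its values, 3.92, 5.19 and 4.07 CPM in C57 and 24.1, 13.5 and 10.6 CPM in mdx, did not overlap (log2 difference 1.86, SE 0.32, adjusted p = 0.0381). The call was lost when any of the 3 C57 vehicle libraries, mdx vehicle replicate 1 or mdx vehicle replicate 2 was left out, and the log2 difference ran from 1.44 to 2.09 over all fits that left out 1 library. With aldosterone edgeR called 0 members, where 0.311% of all genes passed, with 7 at an unadjusted p under 0.05 (15.7% of all genes). DESeq2 called 4 with vehicle (Itga2, Itga4, Itgam and Lamb1) and 3 with aldosterone (Itga2, Itga4 and Itgb6), beside 2.39% and 2.92% of all genes.

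The chains of the muscle laminin receptor did not pass in mdx. Itga7 had an mdx against C57 log2 difference of -0.22 with vehicle (adjusted p = 0.454). Itgb1 was at 1285, 1442 and 1427 CPM in C57 and 1734, 1668 and 1511 CPM in mdx with vehicle, with every mdx library higher, but did not pass (log2 difference 0.23, SE 0.10, adjusted p = 0.316). For Lama2 the difference was -0.12 (SE 0.09, adjusted p = 0.582). The median log2 difference of the 33 members was 0.13 with vehicle, beside -0.000725 over all genes.

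**Figure D3:**
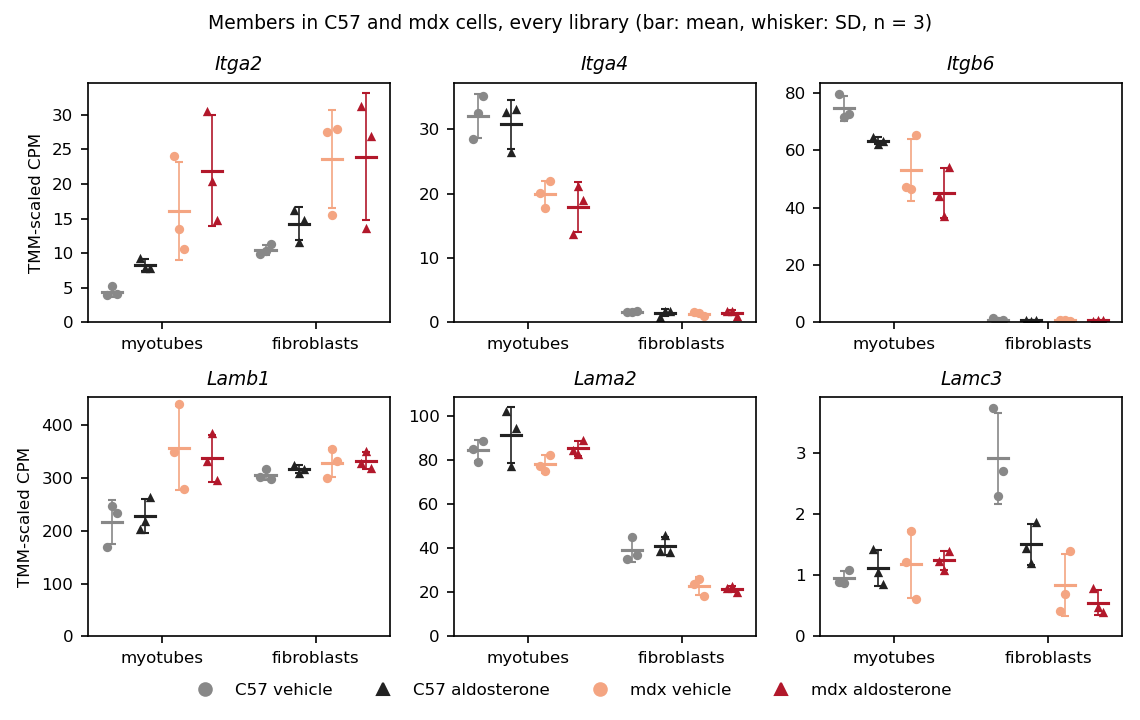
TMM-scaled CPM of 6 members in every library of the 8 groups, with mean (bar) and SD (whisker), n = 3 each. Itga2 is higher and Itga4 and Itgb6 lower in mdx than in C57 myotubes, while Lama2 and Lamc3 are lower in mdx than in C57 fibroblasts.

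Several members differed without overlap yet did not pass. Itga4 lay at 28.4, 32.5 and 35.2 CPM in C57 and 20.2, 17.7 and 21.9 CPM in mdx with vehicle, and at 32.7, 26.4 and 33.2 CPM and 13.6, 21.2 and 19.0 CPM with aldosterone. Every mdx library was below every C57 library under both treatments (log2 differences -0.70 and -0.79, adjusted p = 0.108 and 0.0715). Itgb6 was likewise below in each treatment, with log2 differences of -0.51 and -0.51 (adjusted p = 0.173 and 0.159).

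Lamb1 (ENSMUSG00000002900, mm39 chr12:31315233-31379643), a beta chain of the common laminins, stood on the other side. Its vehicle values were 169, 248 and 234 CPM in C57 and 350.3, 439.7 and 280.1 CPM in mdx, and with aldosterone 203, 219 and 264 CPM and 332, 385 and 296 CPM. Again no libraries overlapped (log2 differences 0.71 and 0.55, adjusted p = 0.163 and 0.222). With vehicle 10 of 33 members did not overlap, where that held for 19.5% of all genes, and with aldosterone 7 of 33, beside 18.3%.

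Itga11 and Itga8 followed the fibroblast markers in the myotube libraries. Itga11 lay at 2.28, 12.2 and 5.37 CPM in C57 and 2.74, 25.8 and 9.92 CPM in mdx with vehicle, and at 1.87, 8.63 and 5.20 CPM and 2.48, 19.5 and 12.1 CPM with aldosterone. Itga8 (ENSMUSG00000026768, mm39 chr2:12111443-12306733) lay at 1.26, 6.34 and 2.47 CPM in C57 and 2.40, 9.50 and 4.58 CPM in mdx with vehicle, and at 1.55, 3.85 and 2.31 CPM and 2.15, 12.1 and 5.99 CPM with aldosterone. In each group culture 1 was lowest and culture 2 highest in both genes. In fibroblasts Itga8 had 6.98, 16.4 and 14.9 CPM (C57 vehicle medium), 17.3, 19.4 and 20.3 CPM (C57 aldosterone medium), 11.3, 7.87 and 9.01 CPM (mdx vehicle medium) and 9.18, 8.19 and 10.9 CPM (mdx aldosterone medium). The sum of the 7 fibroblast markers ordered the cultures the same way except in C57 with aldosterone, at 285, 888 and 611 CPM in C57 and 935, 3142 and 1192 CPM in mdx with vehicle, and at 324, 554 and 644 CPM and 850.2, 3196 and 1701 CPM with aldosterone. In fibroblasts that sum was 11261 to 19714 CPM. Of the 7 markers, 6 exceeded 1 CPM in some C57 vehicle myotube library and 7 in some mdx vehicle library. Every mdx myotube library was above every C57 library of the same treatment in the sum, and the part of these markers in the member differences was not tested. Itga5 and Itga2, also higher in C57 fibroblasts than in C57 myotubes, did not order the mdx vehicle cultures that way. Both were highest in culture 1, where the sum was lowest. In Itga2, as in the sum, every mdx vehicle library still stood above every C57 vehicle library. The order of the 3 libraries of a group cannot show what part the markers had in these genes, which was not tested.

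Itgam, Itgal and Itgb2 followed the leukocyte markers in C57. Itgam (ENSMUSG00000030786, mm39 chr7:127661812-127717663), an alpha chain of macrophages and neutrophils, lay at 0.560, 5.39 and 2.83 CPM in C57 and 0.237, 0.598 and 0.382 CPM in mdx with vehicle, and at 0.373, 2.84 and 1.76 CPM and 0.457, 0.385 and 0.673 CPM with aldosterone. Itgal (ENSMUSG00000030830, mm39 chr7:126895432-126934310), its counterpart on lymphocytes, lay at 0.140, 1.69 and 2.47 CPM in C57 and 0.0339, 0.449 and 0.153 CPM in mdx with vehicle, and at 0.213, 1.48 and 1.04 CPM and 0.0653, 0.385 and 0.184 CPM with aldosterone. C57 cultures 2 and 3 were high in both, mdx culture 2 with aldosterone was not although its leukocyte sum was high, and C57 culture 1 was at or below the highest mdx library of the same treatment. Itgb2, the beta chain of both, was chosen after its values were seen and held 1.07, 17.4 and 11.3 CPM in C57 and 1.05, 2.54 and 0.763 CPM in mdx with vehicle. With aldosterone Itgb2 had 1.07, 10.9 and 6.92 CPM in C57 and 0.522, 5.85 and 1.28 CPM in mdx, so it was high in mdx culture 2, where Itgam and Itgal were not. Itgad, another leukocyte alpha chain and also chosen after its values were seen, did not follow the sum, at 0.187, 0.0678 and 0.145 CPM in C57 with vehicle. In fibroblasts Itgam had 0.118, 0 and 0.0334 CPM (C57 vehicle medium), 0, 0.145 and 0 CPM (C57 aldosterone medium), 0, 0 and 0 CPM (mdx vehicle medium) and 0, 0.206 and 0 CPM (mdx aldosterone medium). Itgal in fibroblasts had 0.0236, 0.0329 and 0.0334 CPM (C57 vehicle medium), 0.101, 0 and 0 CPM (C57 aldosterone medium), 0, 0 and 0.114 CPM (mdx vehicle medium) and 0.0415, 0.0457 and 0.199 CPM (mdx aldosterone medium), so both were near 0 there. The leukocyte sum, given above for C57, was 7.76, 50.9 and 20.5 CPM in mdx with vehicle and 8.03, 249 and 15.7 CPM with aldosterone. Of its 17 genes, 15 exceeded 1 CPM in some C57 vehicle library and 11 in some mdx vehicle library, and 1 and 0 of them were at 0 in all 3 libraries. The sum of 11 endothelial markers was 88.5 to 245 CPM in C57 myotubes and 37.7 to 75.7 CPM in mdx myotubes. The part of leukocyte and endothelial markers in the member differences was not tested.

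**Figure D4:**
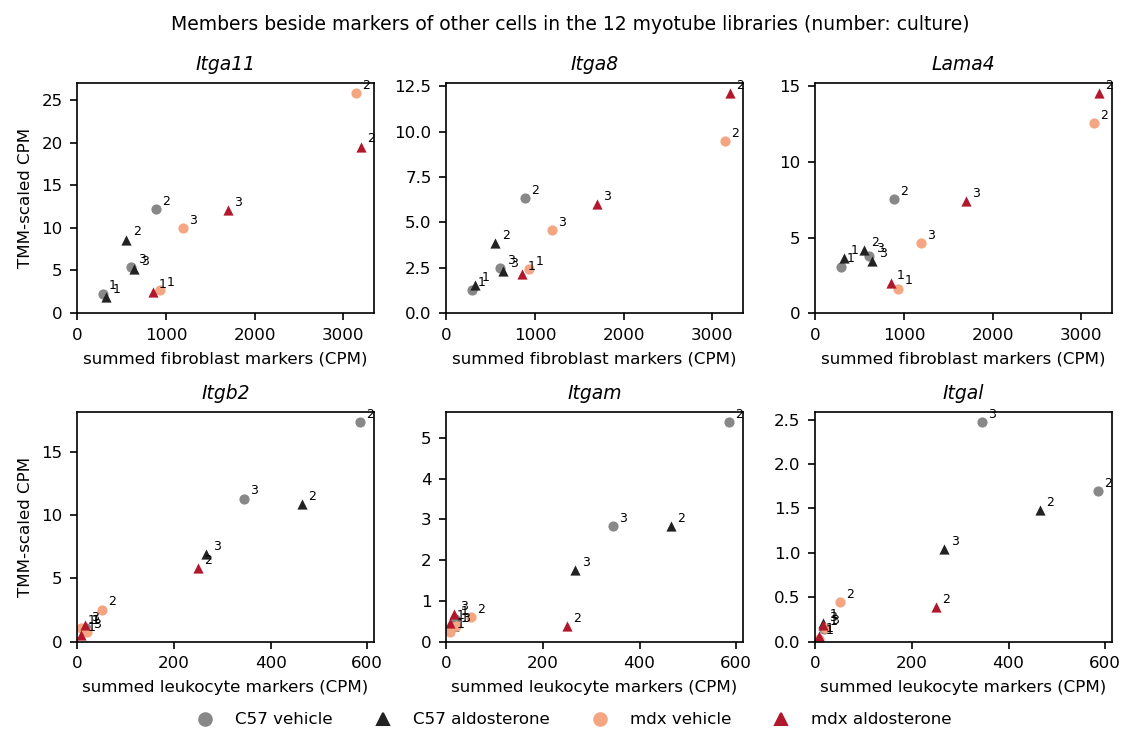
TMM-scaled CPM of Itga11, Itga8 and Lama4 against the summed CPM of 7 fibroblast markers, and of Itgb2, Itgam and Itgal against the sum of 17 leukocyte markers, in the 12 myotube libraries, with symbols by group and the culture number beside each. Lama4 and Itgb2 were chosen after their values were seen. Both mdx culture 2 libraries stand at the right of the upper panels, at 3142 and 3196 CPM, and C57 vehicle culture 2 at the right of the lower panels, at 584 CPM.

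Fibroblasts of mdx mice in vehicle medium were compared with C57 fibroblasts in vehicle medium, and the same was done in aldosterone medium. The laminin gene Lama2 was lower in mdx in both media. In vehicle medium 11 of 33 members had an unadjusted p under 0.05 (12% of all genes) and in aldosterone medium 15 (13.8%). In vehicle medium 2 passed, Lama2 and Lamc3, both lower, where 1.1% of all genes passed, 0.588% lower. In aldosterone medium Lama2 alone passed, where 1.23% passed, 0.636% lower. Lama2, whose loss in patients causes a congenital muscular dystrophy, lay in vehicle medium at 35.4, 45.3 and 37.1 CPM in C57 and 24.0, 26.1 and 18.1 CPM in mdx. Under aldosterone medium the values were 38.9, 45.9 and 38.5 CPM and 22.1, 22.8 and 20.2 CPM. No mdx fibroblast library reached a C57 library in either medium, and the log2 differences were -0.78 (SE 0.13, adjusted p = 0.0123) and -0.93 (SE 0.13, adjusted p = 0.00407).

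Lama2 was called in both media in each of the 12 fits that left out 1 library of the groups compared, 6 per medium. It was also called without the 3 deepest libraries, at -0.96 (adjusted p = 0.0135) and -0.96 (adjusted p = 0.00621). When the fit held only the 2 groups compared, the vehicle medium call was lost (adjusted p = 0.0866). The 8 myotube markers summed to 13.4 to 109 CPM in C57 fibroblasts and 15.1 to 132 CPM in mdx fibroblasts, beside 21831 to 40094 CPM in myotubes, and the 7 fibroblast markers overlapped between the genotypes in vehicle medium. The part of either in the Lama2 result was not tested. Per length, Lama2 made up 4.12% ± 0.505 (SD, n = 3) of alpha chain transcripts in mdx vehicle medium fibroblasts and 8.56% ± 1.29 in C57.

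Lama5, the leading alpha chain, was in vehicle medium at 185, 166 and 212 CPM in C57 and 238, 327 and 238 CPM in mdx. In aldosterone medium it was at 216, 151 and 196 CPM and 245, 332 and 241 CPM. Every mdx library was above every C57 library, but the gene did not pass (log2 differences 0.52 and 0.53, adjusted p = 0.274 and 0.226). DESeq2 called it in both, among 5 members in each medium, beside 2.85% and 3.26% of all genes. Lamc3 (ENSMUSG00000026840, mm39 chr2:31777303-31836551), a rare gamma chain, lay in vehicle medium at 3.75, 2.31 and 2.70 CPM in C57 and 0.423, 0.692 and 1.41 CPM in mdx, without overlap (log2 difference -1.78, SE 0.35, adjusted p = 0.022). In aldosterone medium it lay at 1.45, 1.21 and 1.87 CPM and 0.789, 0.480 and 0.399 CPM (log2 difference -1.48, adjusted p = 0.0831). Myotubes had 0.886, 0.881 and 1.09 CPM (C57 vehicle), 1.44, 1.05 and 0.859 CPM (C57 aldosterone), 1.22, 1.72 and 0.611 CPM (mdx vehicle) and 1.24, 1.09 and 1.41 CPM (mdx aldosterone) of Lamc3. The Lamc3 call was lost without C57 vehicle replicate 1, mdx vehicle replicate 1 or mdx vehicle replicate 2, and without the 3 deepest libraries.

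Itga2 was higher in mdx fibroblasts as it was in mdx myotubes, without passing. In vehicle medium it had 9.90, 10.3 and 11.3 CPM in C57 and 27.6, 15.5 and 27.9 CPM in mdx. In aldosterone medium it had 16.3, 11.6 and 14.8 CPM and 31.3, 13.7 and 26.9 CPM. The mdx replicates 2, both among the deepest libraries, were lowest of their groups (log2 differences 1.17 and 0.73, adjusted p = 0.174 and 0.374). The fit without the 3 deepest libraries was chosen after seeing the data and removed those mdx replicates. In it Itga2 passed in both media, at 1.37 and 1.02 (adjusted p = 6.26e-05 and 0.000242), values that depend on this choice. In that fit 5 members passed in vehicle medium and 6 in aldosterone medium, beside 1.32% and 2.16% of all genes. Itga1, Itga8, Itga11 and Lama2 were lower in both, and Itga9 was lower in aldosterone medium.

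In vehicle medium 13 of 33 members had no overlap between C57 and mdx libraries, where that held for 16.9% of all genes, and for 17 of 33 in aldosterone medium, beside 19.8%. The median log2 difference of the members was -0.17 in vehicle medium and -0.09 in aldosterone medium, beside 0.00455 and 0.00722 over all genes. The 2 comparisons share no library, but same-numbered mdx libraries of the 2 media deviated together (correlation 0.222 to 0.402). The comparisons are therefore not taken as independent. Among the beta chains that stood without overlap, Itgb1, Itgb4, Itgb5 and Itgb8 were lower in mdx in both media, and none passed. The last 3 had log2 differences in vehicle medium of -0.47, -0.18 and -0.61. Margins were narrow for Itgb1, where the lowest C57 and highest mdx libraries had 1405.7 and 1403.7 CPM in vehicle medium. In aldosterone medium they had 1351.4 and 1350.3 CPM of Itgb1, and 7.671 and 7.662 CPM of Itgb8. Itgb5 (ENSMUSG00000022817, mm39 chr16:33650035-33769708) had 486, 542 and 555 CPM in C57 and 468, 466 and 460.0 CPM in mdx in vehicle medium. In aldosterone medium Itgb5 had 509, 528 and 521 CPM in C57 and 490.3, 459 and 444 CPM in mdx.

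Medium of aldosterone-treated myotubes was compared with vehicle medium in fibroblasts, to ask whether what treated myotubes release changes fibroblasts. With all libraries and no pairing edgeR called 0 members in C57, in mdx and as their mean, where 0%, 0% and 0.012% of all genes passed. At an unadjusted p under 0.05 stood 5, 0 and 7 of 33 members, beside 12%, 4.91% and 15.2% of all genes. With pairing in both genotypes edgeR called 0 members again, where 0%, 0% and 0.018% of all genes passed. Then 13, 0 and 13 members had an unadjusted p under 0.05, beside 16.5%, 6.96% and 19.4% of all genes. DESeq2 called Itgb3 in C57 and as the mean, beside 0.444% and 1.76% of all genes. The values nevertheless split in C57, where 12 of 33 members did not overlap between media, beside 21.5% of all genes. In mdx 2 of 33 did not overlap, beside 8.88%. The difference between genotypes called 0 members by edgeR (0% of all genes), with 1 at an unadjusted p under 0.05 (2.35% of all genes), and 0 by DESeq2.

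**Figure D5:**
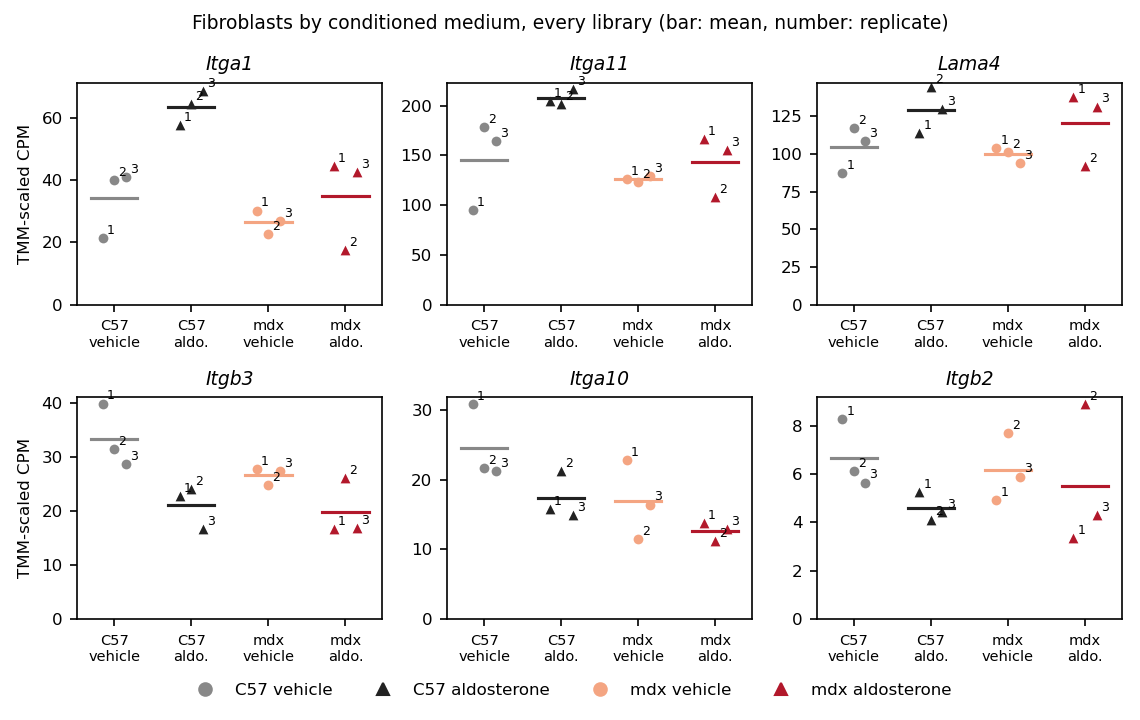
TMM-scaled CPM of 6 members in the 12 fibroblast libraries, with the replicate number beside each point and a bar at the group mean. C57 vehicle replicate 1 and mdx aldosterone replicate 2, 2 of the 3 deepest libraries, stand apart from the rest of their groups in Itga1 and Itga11.

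Itga1, chosen after its values were seen, was lower in C57 vehicle replicate 1 and mdx aldosterone replicate 2, both among the 3 deepest libraries, than in the rest of their groups. It lay at 21.5, 40.1 and 41.0 CPM with vehicle medium and 57.7, 64.4 and 68.6 CPM with aldosterone medium in C57, all treated libraries higher. In mdx it lay at 30.3, 22.8 and 26.8 CPM and 44.6, 17.6 and 42.5 CPM, where replicate 2 of the aldosterone group was below every vehicle library (mean log2 change 0.63, SE 0.26, adjusted p = 0.31). Without the 3 deepest libraries, an alternative chosen after seeing the data, Itga1 passed in C57, in mdx and as their mean, at a mean log2 change of 0.62 (adjusted p = 5e-05). Itga1 spans the gene Pelo on the same strand, so some reads may belong to either.

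In that fit Itga11, Lama4 and Itgb3 passed as well, which made 4 members for the mean, 1 in C57 and 3 in mdx, beside 4.69%, 0.466% and 1.4% of all genes. Itga11 lay at 95.5, 178 and 164 CPM with vehicle medium and 204, 201 and 217 CPM with aldosterone medium in C57, and at 126, 123 and 129 CPM and 167, 108 and 156 CPM in mdx. Its mean log2 change was 0.34 with all libraries (adjusted p = 0.372) and 0.29 without the 3 (adjusted p = 0.00141). Lama4, chosen after its values were seen, changed by 0.28 with all libraries (adjusted p = 0.311) and by 0.31 without the 3 (adjusted p = 0.0251). Itgb3 lay at 39.9, 31.4 and 28.6 CPM with vehicle medium and 22.8, 24.1 and 16.6 CPM with aldosterone medium in C57, without overlap, and at 27.7, 24.9 and 27.4 CPM and 16.7, 26.1 and 16.8 CPM in mdx. It was the member with the smallest p of the mean with all libraries (log2 change -0.54, SE 0.14, adjusted p = 0.186), and without the 3 it was at -0.63 (adjusted p = 0.003).

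Leaving out mdx aldosterone replicate 2 alone gave 5 calls for the mean, with Itga1, Itga9 and Lama4 higher and Itgb2 and Itgb3 lower, beside 5.59% of all genes. No label says whether the deepest libraries come from another sequencing run, and their part in the result was not tested. The fibroblast markers ran alongside, at 11261, 16346 and 14786 CPM with vehicle medium and 15873, 19714 and 16532 CPM with aldosterone medium in C57, and at 14688, 12652 and 12096 CPM and 16993, 11316 and 15159 CPM in mdx. C57 vehicle replicate 1 and mdx aldosterone replicate 2 were lowest of their groups in that sum too, and its part was not tested.

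Itga10, which rose in aldosterone-treated myotubes, had lower mean values in fibroblasts with aldosterone medium. Vehicle medium gave 30.9, 21.7 and 21.3 CPM and aldosterone medium 15.8, 21.3 and 15.0 CPM in C57, and at 22.9, 11.5 and 16.5 CPM and 13.8, 11.2 and 13.0 CPM in mdx. In C57 the media did not overlap, by a margin of under 0.1 CPM, and in mdx they did, and the gene did not pass (mean log2 change -0.47, SE 0.18, adjusted p = 0.283). The highest fibroblast members did not pass either. Lamb2 had a mean log2 change of 0.13, Lamc1 of 0.05, Lamb1 of 0.03, Itga5 of -0.11, Itgav of -0.09, Itgb1 of -0.04 and Itgb5 of -0.02.

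The partners of integrins and laminins were read from 4 lists. Of 17 genes of the dystrophin complex and other laminin receptors, 12 were higher in C57 myotubes than in C57 fibroblasts and 5 lower. Over all genes 36.7% were higher and 38% lower in that comparison. In the paired aldosterone mean in myotubes, where 8.96% of all genes passed, Dmd was higher (log2 0.26, adjusted p = 0.00111) and Dag1, which encodes dystroglycan, lower (log2 -0.15, adjusted p = 0.0183). In mdx against C57 myotubes with vehicle the 1 called gene of that list was Dmd itself (log2 difference -3.16). There 0.362% of all genes passed. Of 12 tested genes that build the sugar chain by which dystroglycan binds laminin, edgeR called 0 in every comparison within a cell type. Without pairing, 0% to 1.23% of all genes passed in those comparisons.

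Of 31 integrin adaptor genes tested in myotubes, 5 were higher and 1 lower in the paired aldosterone mean and 0 passed without pairing, beside 4.4% and 4.56% of all genes in the paired mean. Among them were Tln2 (a talin, which activates integrins, log2 0.19), Pxn (paxillin, log2 0.16) and, lower, Itgb1bp2 (melusin, a muscle partner of the beta1 chain, log2 -0.25). Of 20 basement membrane partners, 1 was higher and 3 were lower in that mean and 0 passed without pairing, including Npnt (nephronectin, a ligand of the integrin that holds alpha8, log2 -0.25) and Nid2 (nidogen, which links laminin to collagen, log2 -0.34). In mdx against C57 fibroblasts Npnt was lower beside Lama2 in both media (log2 differences -1.15 and -1.44, adjusted p = 0.0176 and 0.00453). Col15a1, a collagen of the outer basement membrane, was lower in vehicle medium (-1.24, adjusted p = 0.0307).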

How the data were processed

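Raw read counts per gene, with Ensembl IDs, symbols, lengths and mm39 coordinates, were deposited by the authors in 1 table of 24 libraries (poly(A), non-directional, per the labels' protocols). Counting was by featureCounts 1.5.0-p3 on mm39, per the submitters' processing notes. Aligner and annotation release were not given in the sources used here. No column lacked a sample (0 columns).

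Genes with low counts were removed with filterByExpr, libraries scaled by TMM, and groups compared with edgeR 4.0.16 (quasi-likelihood, robust; limma 3.58.1, R 4.3.3), each cell type in 1 fit and both cell types in another. Adjusted p-values are Benjamini-Hochberg over all genes kept, with calls under 0.05. SE is the absolute log2 fold change over the root of F. DESeq2 1.42.0, other filters, fits of the compared groups alone and left-out libraries were alternatives. The script was tested on simulated data.

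Same-numbered vehicle and aldosterone libraries deviated together: the correlation of their deviations from group means was 0.452 to 0.737 in C57 myotubes, 0.629 to 0.764 in mdx myotubes and 0.222 to 0.402 in mdx fibroblasts. In myotubes those numbers were taken as pairs. In C57 fibroblasts the correlation was 0.0737 to 0.207, so fibroblast results are given without pairing unless pairing or a block is named. Where named for the medium comparisons, it covered both genotypes.

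The members and lists were chosen with earlier results of these data known. Named with every library are members called within a cell type with or without pairing, and the 3 alpha, 2 beta and 3 laminin genes highest per length in each cell type. The values of 1 member are not reported here.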

Additional observations from a re-analysis of the deposited data

How the results depend on the processing

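Alternative values for single members were taken only for the 91 results called with or without a block on the replicate number. A change of direction was therefore unlikely from the start. Among these values 0 changed direction, 1081 kept their side of the threshold, 111 gained a call and 28 lost one. Counts of called members moved more. DESeq2 called 1 for medium in C57 fibroblasts, 1 for the medium mean, 5 for mdx fibroblasts in each medium, 3 for the cell type difference, 1 for the aldosterone mean in myotubes, and 4 and 3 for mdx myotubes with vehicle and aldosterone. With no filter mdx fibroblasts had 5 (vehicle medium) and 4 (aldosterone medium), and mdx myotubes with aldosterone 1. With only the compared groups fitted, mdx fibroblasts had 0 and 2 and mdx myotubes with vehicle 0. With the deepest libraries as a term, mdx fibroblasts had 4 and 4. Without the 3 deepest libraries, chosen after seeing the data, the counts were 1, 3 and 4 for medium in C57, mdx and their mean, and 5 and 6 for mdx fibroblasts. Leaving out 1 library gave 1 to 3 for mdx fibroblasts in vehicle medium, 1 to 2 in aldosterone medium, 0 to 5 for the medium mean, 0 to 3 for the cell type difference and 0 to 2 for mdx myotubes with vehicle. Shares of all genes are not given beside these counts, which show only how the number of calls depends on the processing.

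With the replicate block the aldosterone counts in myotubes were 7 in C57, 3 in mdx and 9 for the mean. Over all genes 4.98%, 2.33% and 8.96% passed in these fits. The member counts also changed with the cultures in the fit. Without 1 culture in that paired fit they ran from 4 to 7, from 0 to 1 and, for the mean, to 10, 11 and 7 without C57 cultures 1, 2 and 3 and to 9, 9 and 7 without the mdx cultures. The genotype difference called 1 without mdx culture 1. In fibroblasts the block without mdx replicate 2 gave 2 in mdx and 7 for the mean. No share of all genes is given for the fits without a culture or replicate, so those counts are not read as a result about the members. Numbers did not pair C57 with mdx, where a block gave 6 and 5 for myotubes with vehicle and aldosterone, beside 2.75% and 2.52% of all genes. The block changed no other count beyond 1.5 times. Genes under about 1 CPM, among them Itgal and Itgax, rest on few reads in mdx myotubes.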

Other observations

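The matrix proteins that integrins bind, other than laminins, were mostly lower in myotubes than in fibroblasts. Of 18 such genes tested in C57 with vehicle, 17 were lower and 0 higher, with a median log2 difference of -2.58 beside -0.0279 over all genes, in a comparison where 38% of all genes were lower. Ltbp1, which holds latent TGF-beta in the matrix, differed by -2.25, Tnc (tenascin, a ligand of the integrin that holds alpha9) by -1.97 and Spp1 (osteopontin, a ligand of alphav, alpha4 and alpha9 integrins) by -2.20.

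Spp1 also moved within myotubes. In C57 it had 1434, 1460 and 1725 CPM under vehicle and 1161, 1027 and 1237 CPM under aldosterone. In mdx the corresponding values were 2680, 2818 and 2661 CPM and 1829, 1716 and 1714 CPM, so treated libraries lay below untreated ones in both. It passed edgeR's test of the mean without pairing (log2 change -0.53, adjusted p = 0.0106) and with it (adjusted p = 1.25e-08). Spp1 was higher in mdx than in C57 myotubes with vehicle (log2 difference 0.81, adjusted p = 0.00546) and with aldosterone (0.60, adjusted p = 0.0372). In the paired mean, of 17 ligand genes tested, 3 were higher and 6 lower, beside 4.4% and 4.56% of all genes, and without pairing Spp1 alone passed. The 9 included Tnc at -0.31, Fbn2 (a fibrillin) at -0.52 and Ccn1 (a matricellular protein) at 0.36. In fibroblasts 1 ligand gene passed with the medium, Ccn3, higher with aldosterone medium (mean log2 change 0.45, adjusted p = 0.00591).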
